A study of Mus musculus with 4 samples.

Results

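Wide unmethylated valleys are stretches of the sperm genome in which every measured window had almost no DNA methylation over 3 kb or more. They were found in targeted bisulfite sequencing (TGBS) of mouse sperm and were chosen by the mean level of windows over all 4 libraries. A window of 200 bp was counted as measured if it held 3 or more CG sites with a depth of 10 reads or more in each of the libraries, and a window's level is the mean over its sites of the methylated share of reads. Windows at or under 10% were joined into a run while the next measured window was also low and at most 1 kb away. Of 25261 runs on the 19 autosomes, 797 (3.16%) reached 3 kb and are called valleys here, and 24464 were shorter. The valleys held 12456 of the 229337 measured windows and 3.144 Mb in all. Their low level, their length and the absence of methylated windows inside them were set by this rule, so those values are descriptions and not results of a test.

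The study compared swim-up sperm, the motile sperm that most sperm studies use, with histone replacement-completed sperm (HRCS), and each fraction had 2 libraries. All 4 libraries came from wild-type C57BL/6 mice, 11 to 12 weeks old. Total sperm, the source of HRCS, came from the cauda epididymis and vas deferens, and swim-up sperm are the upper part of the medium in which epididymal tissue was kept, the cauda epididymis where the study's text names it. For HRCS, total sperm were mildly sonicated to remove the tails and the dense heads were pelleted in 82% Percoll, so the fractions differ in this handling as well as in histone content. TGBS enriches chosen regions with capture probes before bisulfite conversion, so the genome between the probes was mostly not measured, and nothing in the labels says that the 2 libraries of a fraction came from different animals. The swim-up libraries held 78562921 and 71379227 calls, each call being a single CG site seen by a single read, and the HRCS libraries held 89403347 and 78381101.

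As background, most CG sites of the sperm genome are methylated, and CpG islands, the CG-rich stretches at many gene starts, are not. Over most gene starts the unmethylated stretch ends close to the island. Over many genes that pattern the embryo, such as the homeobox genes, it runs on far past it, and such regions are known as DNA methylation valleys or canyons. In somatic and embryonic cells many of them carry marks of the Polycomb system, which keeps developmental genes silent.

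The sequences just before 5 gene starts are shown first, to show what an unmethylated gene start inside a long valley looks like. Each is the 250 bases before the RefSeq start of a transcription factor gene inside 1 of the 10 longest valleys, 5′ to 3′ on the gene's own strand, with every CG in capitals. The letters are those of RefSeq (GRCm38.p6), and the positions are those of mm9, the build of the deposited tables, found by matching the spacing of the CG sites. The 5 genes were picked by hand, so they do not stand for the rest of a valley, and CG sites are denser in all 5 stretches than in the valleys around them. Before Dlx2 there were 9.6 CG sites per 100 bases, before Hic1 7.2, before Olig2 8.8, before Hoxd10 8.0 and before Evx2 5.6, against 4.55, 6.71, 4.85, 3.16 and 4.68 over the whole valleys.
Dlx2, chr2:71384812-71385061, minus strand: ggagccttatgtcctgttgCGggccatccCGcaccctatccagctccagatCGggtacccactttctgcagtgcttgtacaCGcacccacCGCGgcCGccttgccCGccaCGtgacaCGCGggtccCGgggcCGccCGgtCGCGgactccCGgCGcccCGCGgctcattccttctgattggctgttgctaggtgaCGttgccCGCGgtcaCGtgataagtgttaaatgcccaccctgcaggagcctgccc
Hic1, chr11:74983758-74984007, minus strand: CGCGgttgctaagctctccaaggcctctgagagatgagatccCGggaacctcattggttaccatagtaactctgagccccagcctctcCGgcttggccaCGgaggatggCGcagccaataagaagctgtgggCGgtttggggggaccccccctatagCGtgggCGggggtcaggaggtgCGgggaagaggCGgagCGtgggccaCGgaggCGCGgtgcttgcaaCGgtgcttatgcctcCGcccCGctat
Olig2, chr16:91225545-91225794, plus strand: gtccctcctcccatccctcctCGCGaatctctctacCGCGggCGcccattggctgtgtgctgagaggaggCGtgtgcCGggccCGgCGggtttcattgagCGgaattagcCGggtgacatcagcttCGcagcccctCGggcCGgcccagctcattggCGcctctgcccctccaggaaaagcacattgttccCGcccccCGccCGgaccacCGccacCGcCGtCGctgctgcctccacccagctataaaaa
Hoxd10, chr2:74529698-74529947, plus strand: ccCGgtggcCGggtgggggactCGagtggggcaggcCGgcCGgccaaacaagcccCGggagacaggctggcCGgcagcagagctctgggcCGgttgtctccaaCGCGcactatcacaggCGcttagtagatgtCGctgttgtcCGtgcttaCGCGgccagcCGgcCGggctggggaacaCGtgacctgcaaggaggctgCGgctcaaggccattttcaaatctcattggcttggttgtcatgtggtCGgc
Evx2, chr2:74497615-74497864, minus strand: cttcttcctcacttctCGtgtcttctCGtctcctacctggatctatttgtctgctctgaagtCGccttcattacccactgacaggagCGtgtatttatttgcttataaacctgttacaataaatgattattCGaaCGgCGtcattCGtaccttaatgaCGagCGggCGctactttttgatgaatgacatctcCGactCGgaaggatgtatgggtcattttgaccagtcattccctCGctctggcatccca

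The stretch before Dlx2, a homeobox gene of the forebrain and the branchial arches, held 24 CG sites, all of them with at least 10 reads in every library. Their mean level was 0.548% and 1.12% in the swim-up pair, and 1.30% and 0.973% in the HRCS libraries. Before Hic1, a zinc finger repressor, 18 CG sites had mean levels of 1.24% and 0% in swim-up sperm, against 1.56% and 1.86% in HRCS. The value of 0% rests on 459 calls with no methylated read. Olig2, a factor of motor neurons and oligodendrocytes, had 15 of its 22 CG sites measured, and Hoxd10, a gene of limb and trunk patterning, had all 20. No single CG site in these 5 stretches had a mean level above 6.17%. The stretch before Evx2, a homeobox gene at the end of the HoxD cluster, was the poorest in G and C, 45.6% of its bases against 64.4% to 66.8% in the other 4, and its 14 CG sites had levels between 0.642% and 1.80% over the libraries.

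Length was measured from the first base of the first window to the last base of the last one. The median valley was 3600 bp long, with quartiles of 3200 and 4200 bp. The range ran from 3000 to 12400 bp, 62.6% of the valleys were under 4 kb, and 115 reached 5 kb, 53 reached 6 kb and 11 reached 8 kb. The limit of 3 kb cuts a continuous distribution, since 159 valleys were exactly 3 kb long and 228 runs were 2.8 kb long. The first 3 valleys just inside the limit, in chromosome order, lay on chromosome 1 from 10027401, 14744201 and 39249201, the third with the start of the circadian factor Npas2, and had levels of 1.03%, 1.51% and 1.36%. The first 3 runs just outside it, from 16094001, 34489401 and 36613201 on the same chromosome, had levels of 1.21%, 1.23% and 1.53%. Over all runs at the limit, the 159 valleys of 3000 bp had a median level of 1.53% (quartiles 1.20% and 1.85%) and the 228 runs of 2800 bp 1.56% (1.28% and 1.94%), with wide overlap.

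**Figure D1:**
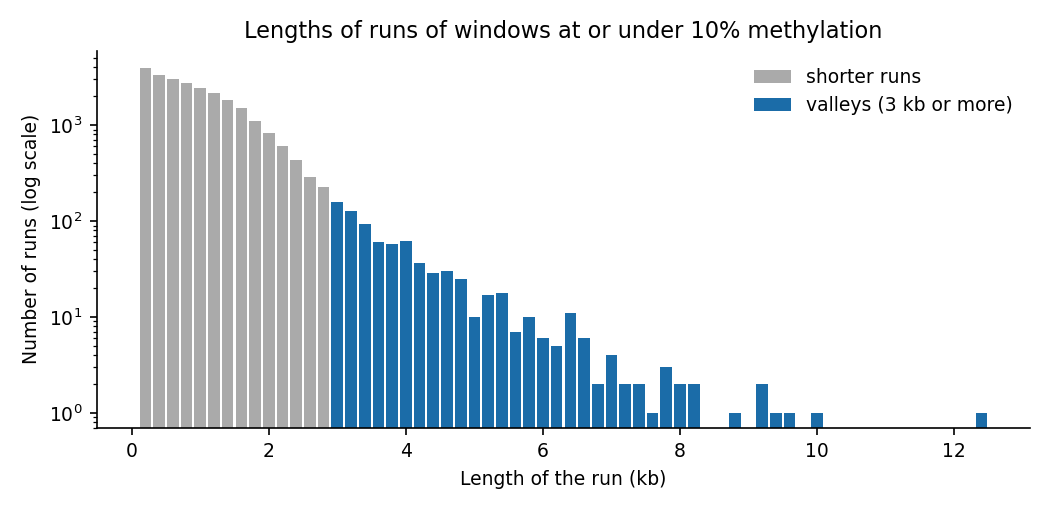
Number of runs of windows at or under 10% methylation (log scale) against their length in kb, with the 24464 shorter runs in grey and the 797 valleys in blue. The counts fall without a break across 3 kb, and a thin tail of 11 valleys reaches 8 kb or more.

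The longest valley, of 12.4 kb, lay on chromosome 8 from 94878801 to 94891200 and held 657 CG sites and the start of Crnde, a long non-coding RNA gene. Its level was 1.67% and 1.38% in the swim-up pair, and 1.34% and 1.30% in the HRCS libraries. Next were a valley of 10000 bp with the start of Tnrc18 on chromosome 5 (143575401 to 143585400) and the Dlx2 valley of 9600 bp on chromosome 2 (71376801 to 71386400). A valley of 9400 bp on chromosome 5 (109978801 to 109988200) held the starts of Gm8493 and of the cytokine receptor gene Crlf2, and its level of 2.30% was the highest of the 10 longest. Of 2 valleys of 9200 bp, that on chromosome 7 (28114001 to 28123200) held Gm30543 and Ltbp4, a gene of the extracellular matrix, and that on chromosome 11 (74978401 to 74987600) held Hic1. The Olig2 valley on chromosome 16 (91220001 to 91228800) spanned 8800 bp. Valleys of 8200 bp held Hoxd10 on chromosome 2 (74524401 to 74532600) and the pioneer factor gene Foxa1 on chromosome 12 (58643001 to 58651200). The Evx2 valley on chromosome 2 (74492201 to 74500200), of 8000 bp, was the last of the 10. It tied with another valley of 8000 bp that comes later in chromosome order and was left out. Of these 10 valleys 5 held a placed start of the homeobox, developmental factor and signal lists described below (Dlx2, Olig2, Hoxd10, Foxa1 and Evx2), against 84 of all 797 (10.5%), given without a test. Genes of these lists whose start could not be placed were not counted, so a valley named by another gene may hold one. The lengths rest on the gap limit, and with a limit of 500 bp the Crnde valley was 6000 bp and no longer the longest of the 10.

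The windows along single valleys were low from end to end. In the Dlx2 valley the 36 measured windows had mean levels between 0.346% and 4.88%, with a median of 1.35%. In the Hic1 valley they lay between 0.397% and 3.37%, also over 36 windows, with 4 to 26 CG sites each. The 27 windows of the Hoxd10 valley lay between 0.629% and 4.29%, and the highest value in any single library was 10.5%. Around the Dlx2 and Hic1 valleys no window was measured within 3 kb on either side, and around the Hoxd10 valley 7 windows were measured and all were at or under 2.92%, so the data do not show where these 3 valleys end.

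**Figure D2:**
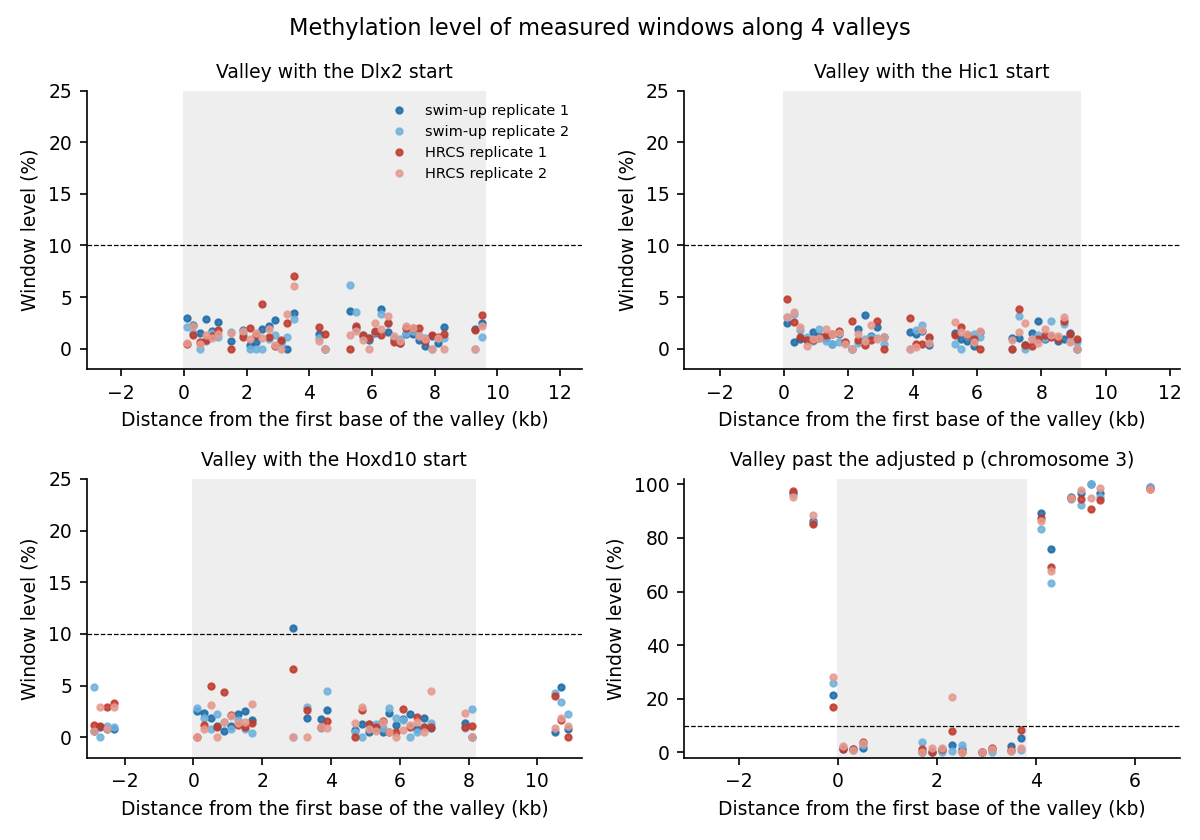
Level of each measured 200 bp window (%) in each library against the distance of its centre from the first base of the valley (kb), for the valleys with the Dlx2, Hic1 and Hoxd10 starts and for the valley on chromosome 3 past the adjusted p. Grey marks the valley, the dashed line is the 10% limit, and the lower right panel has a wider axis than the others. Only the chromosome 3 valley has measured methylated windows on its sides, up to 98.6%, and in its most different window the HRCS libraries are at 7.84% and 20.8%, above both swim-up libraries.

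CG density was not used by the rule beyond the need for 3 measured sites in a window. The median valley held 5.58 CG sites per 100 bp, with quartiles of 4.73 and 6.60, and 210 CG sites in all. Median density was 3.50 per 100 bp in runs under 1 kb, 5.94 in runs of 1 to under 2 kb and 6.18 in runs of 2 to under 3 kb. Among valleys it was 5.74 at 3 to under 4 kb, 5.52 at 4 to under 5 kb and 5.34 at 5 kb or more. Thus the widest valleys were no denser in CG sites than ordinary runs of 1 to 3 kb. These densities count all listed CG sites of a span, measured or not. The median measured share of the span was 100% in runs of 1 to under 2 kb and 77.8% in valleys of 5 kb or more. The densest valley, with 14.3 CG sites per 100 bp, lay on chromosome 11 from 82743601 to 82747000 with the start of Unc45bos. It was followed by the valleys on chromosome 17 from 39979801, with 10.6 per 100 bp (the region of deepest coverage, described below), and on chromosome 5 from 25003201, with 10.6 and the starts of 4831440E17Rik and Kmt2c, a histone H3 lysine methyltransferase gene. The sparsest lay on chromosome 13 from 23522001 to 23527800 with 2.22 per 100 bp, on chromosome 2 from 174498001 with 2.24 and on chromosome 13 from 28976001 with 2.75 (2610307P16Rik).

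The residual level of the valleys, the methylation that was left, had a median of 1.47% over the 797, with quartiles of 1.21% and 1.77% and a range of 0.790% to 5.69%. It was above 2% in 128 valleys (16.1%) and above 5% in 1. Unconverted cytosines and sequencing errors also count as methylated reads, and the CG sites of the lambda sequence listed in the tables held 0 to 20 calls per library, too few for a conversion rate, so how much of this level was methylation was not tested. The lowest levels, 0.790%, 0.809% and 0.820%, were those of the valleys with the starts of Gm12536 and Ptpn3 (chromosome 4 from 57312001), A230054N11Rik and Sim1 (chromosome 10 from 50611801) and Kif26b (chromosome 1 from 180457401). Of these, Sim1 is a transcription factor gene of the hypothalamus and Ptpn3 a tyrosine phosphatase gene. The highest levels were 5.69% on chromosome 17 from 39979801 to 39983200, 4.84% in the Unc45bos valley and 4.30% on chromosome 2 from 165221201 to 165225200. Split into 4 sets of about equal size from the densest to the sparsest, the valleys had median levels of 1.42%, 1.45%, 1.51% and 1.57%, so density and level moved little together (Spearman's rho -0.136 and Pearson's r -0.0380 across 797 valleys, which share the same libraries).

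The valley with the highest level also had by far the deepest coverage. It held 3046 reads per CG site, as the mean over the libraries, against a median of 30.4 over valleys and 180 in the valley of second highest coverage. It alone held 21.1% to 22.3% of all calls in valleys in each library, and no gene start was placed in it. Whether reads of more than 1 genomic copy were mapped to this place was not tested, so its level, its CG density and its share of calls may not be those of a single locus. Its level was 4.78% and 6.39% in the swim-up pair, and 6.04% and 5.56% in the HRCS libraries, which overlap. When calls were pooled over all valleys, this region raised the level from 1.23% to 1.40% without it to 2.10% to 2.38% with it, whereas the mean over valleys gives each region the same weight.

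By the mean over windows, the shortest runs had the highest level and the longest valleys the lowest, with little change between 1 and 3 kb, although the rule set the same limit for all of them. This mean was 2.63% in runs under 1 kb, 1.70% and 1.71% in runs of 1 to under 2 kb and 2 to under 3 kb, 1.59% in valleys under 4 kb, 1.54% in those of 4 to under 5 kb and 1.45% in those of 5 kb or more. In every library, runs under 1 kb were the highest and valleys of 5 kb or more the lowest, for example 2.71% and 1.49% in swim-up replicate 1. The median level of single runs did not follow this order throughout, with 2.19% under 1 kb, 1.51% at 1 to under 2 kb, 1.63% at 2 to under 3 kb, and 1.50%, 1.47% and 1.42% in the 3 valley classes. No test was made of this order, since the rule used the same levels. A longer run also has a smaller share of windows near its edges, where levels were higher, and the part of this in the order was not tested.

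The level in a library that took no part in the choice was measured by leaving each library out of the window means and defining the valleys again from the other 3, with the same sites. This gave 792 to 803 valleys. Their mean level in the library left out was 1.62% and 1.45% for swim-up replicates 1 and 2 and 1.66% and 1.63% for HRCS replicates 1 and 2. None of these valleys exceeded 10% in the library left out, and the highest value was 6.79%. Of their windows, 0.775% to 0.908% exceeded 10% in the library left out. The valleys were therefore low in each library, also where that library had not chosen them.

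Single CG sites inside valley spans were rarely methylated. Of 128326 CG sites with 10 reads in every library inside the valley spans, 70.9% and 77.6% had no methylated read in the swim-up libraries, and 68.7% and 72.7% had none in the HRCS libraries. In all 4 libraries 8 sites were at 50% or more, in 3 valleys. The valley of Cish, a gene of the SOCS family that restrains cytokine signals, held 4 of them on chromosome 9 between 107200316 and 107200675. The highest, at 107200325, had levels of 87.5% and 94.7% in swim-up sperm, against 96.8% and 93.8% in HRCS on 16 to 32 reads. A valley on chromosome 17 held 3 sites between 24825447 and 24825623, with means over the libraries of 65.3% to 71.4%, and a valley on chromosome 15 held 1 at 102769349, with a mean of 64.6%. Of the 9 sites at 50% or more in both swim-up libraries, 8 were so in both HRCS libraries too, and of the 13 at 50% or more in both HRCS libraries 8 were so in both swim-up libraries. None of the 8 lies in a measured window, since fewer than 3 CG sites of their windows had the needed depth. They are inside the valley spans because the rule passes over stretches of up to 1 kb without a measured window.

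At their borders the valleys were not alike. Of 1594 borders, 595 (37.3%) ended at a measured window above 10%, and 999 (62.7%) ended because no window was measured within 1 kb. Beyond 421 of those 999 (42.1%) the next measured window was again at or under 10%, at a median distance of 7200 bp over the 999. Both borders were closed by a methylated window in 135 valleys, 1 border in 325 and neither in 337, and the median length was 3600 bp in each of these 3 sets. For valleys with an open border the length is therefore that of the measured part, and how far the unmethylated stretch went on was not measured. The window that closed a border was at 10 to 25% in 52.6% of cases and above 75% in 15.1%, with a median of 24.0%.

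Levels fell steeply over the first windows inside a border. The outermost valley window had a mean level of 3.03%, the window 200 bp further in 1.69%, that at 400 bp 1.33% and that at 600 bp 1.26%, after which the mean stayed between 1.23% and 1.29% up to 2000 bp. The outermost window was at 3.92% at closed borders and at 2.50% at open ones. CG sites per window rose over the same distance, from 7.54 in the outermost window to 10.3, 12.2 and 13.3. Outside, up to 1200 bp, only closed borders had measured windows. Their mean was 20.7% at 200 bp, 37.3% at 400 bp, 53.1% at 600 bp and 68.9% at 1200 bp, with 4.74 to 5.63 CG sites per window. These means rest on 327, 214, 178 and 147 windows, so the set of borders measured differs between distances. Each of the 4 libraries showed the same course, for example 3.12% and 2.77% in swim-up sperm, against 3.14% and 3.08% in HRCS in the outermost window. Further out the mean fell again, at closed borders alone from 68.9% at 1200 bp to 46.5% at 2000 bp and 36.1% at 3000 bp, where 57.6% of the measured windows were at or under 10%. The windows directly outside a closed border exceed 10% by the rule, so the size of the step there is a description.

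**Figure D3:**
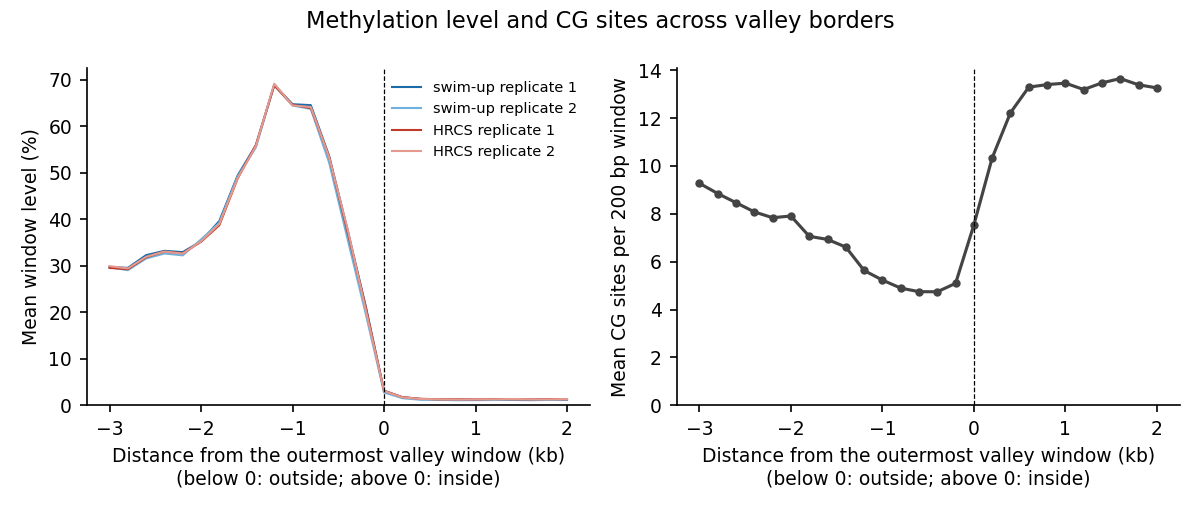
Mean window level (%) in each library (left) and mean number of CG sites per 200 bp window (right) against distance from the outermost valley window in kb, over all borders, with the outside below 0 and the inside above 0. Up to 1.2 kb outside only closed borders have measured windows, and open borders add theirs further out. The set of borders with a measured window differs between distances. The 4 library lines lie on each other, fall from 68.9% at 1.2 kb outside to 3.03% in the outermost window, and CG sites rise from 7.54 to 13.3 per window over the first 600 bp inside, while further outside the level falls again.

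Gene starts were placed on mm9 by matching the spacing of CG sites in RefSeq promoters of at least 8 CG sites to the CG sites listed in the tables. Of 15982 such promoters 15794 (98.8%) were placed, which gave 13098 genes on autosomes. Genes with fewer CG sites around their start could not be placed, so every share below is a share of CG-rich starts. A placed start lay in 528 of the valleys (66.2%). Of these, 382 held 1 gene and 146 held 2 or 3, with starts on both strands in 136. The valleys thus held 678 of the 13098 genes (5.18%), and 80.5% of the genes had a start in a shorter run only. The share of runs with a placed start rose from 15.4% of runs under 1 kb to 61.6% at 1 to under 2 kb, and was then level at 65.5% to 70.4% in the valley classes.

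The genes in valleys were counted on 5 lists of gene families. The first held homeobox families picked by the start of their symbols, such as Hox, Pax, Lhx, Nkx and Dlx, whose factors set position and cell identity in the embryo, and it left out homeobox genes with other names, such as Hhex and Hlx, which also had a valley (both named after their values were seen). Of its 96 placed genes, 44 (45.8%) had a start in a valley, against 5.18% of all genes placed. They included Cdx2 of the trophoblast and hindgut, Pax6 of the eye, Lhx1 of the head and kidney, Msx1 of the limb and teeth, Six3 of the forebrain, Nkx6-1 of the pancreas and spinal cord, and 9 Hox genes. Of 84 placed genes of other developmental factor families, 33 (39.3%) did, among them Sox2 and Klf4, which are factors of pluripotency, Gata2 of blood precursors, Foxa2 of the endoderm, Hand2 of the heart and limb, Neurog2 of neurons and Twist1 of the mesoderm. Signals were fewer, with 7 of 43 (16.3%): Bmp4, Fgf9, Ihh, Sfrp2, Wnt1, Wnt11 and Wnt6. Of 210 placed genes of housekeeping families, for the ribosome, proteasome, translation, transcription and respiration, 2 (0.952%) did, the proteasome genes Psma7 and Psmc2. None of 27 germline genes did, and 26 of the 27 had their start in a shorter run.

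The length of the low run around the start does not depend on the 3 kb limit, but it is the length of the measured part. How many of these runs ended for lack of a measured window was not counted for each list. The median was 1400 bp over all genes with a start in a low run, 3200 bp for homeobox genes, 2600 bp for the other developmental factors, 2100 bp for signals, 1200 bp for housekeeping genes and 1000 bp for germline genes. The longest run around a housekeeping gene was 3200 bp and around a germline gene 2200 bp, while the homeobox list reached 9600 bp at Dlx2. With a limit of 2 kb in place of 3 kb, 66.7% of homeobox genes and 20.3% of all genes had a start in such a run, and with 5 kb the shares were 19.8% and 0.855%. The order of the lists was not the same at every limit. At 5 kb signals had 6.98%, above the other developmental factors with 5.95%, and neither housekeeping nor germline genes had any. At 2 kb germline genes had 7.41%, just above housekeeping genes with 7.14%. The lists were drawn up with earlier results of these data known, and no test was made on them.

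**Figure D4:**
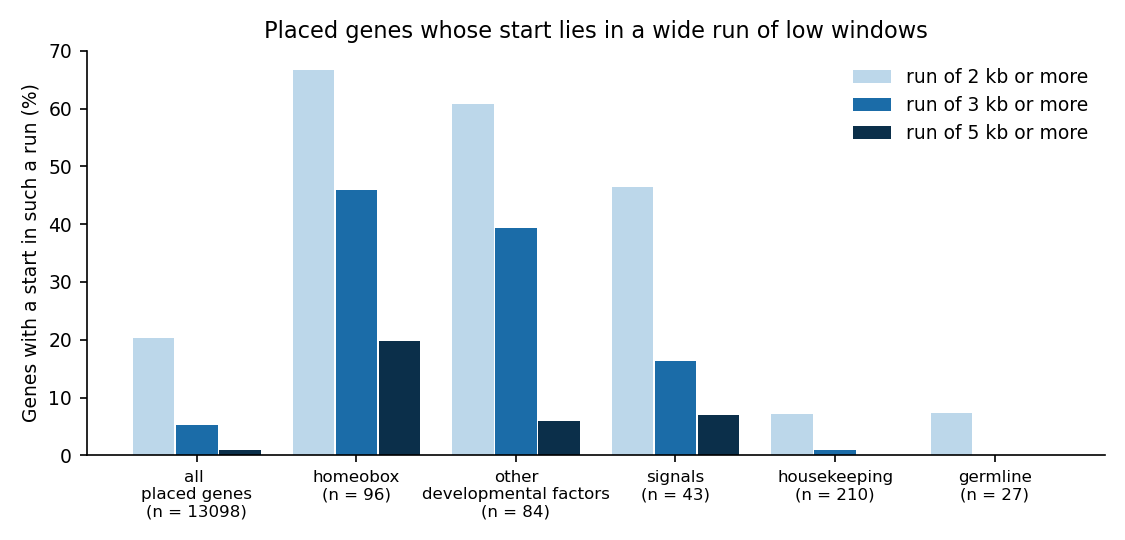
Percent of placed genes with a start in a run of low windows of at least 2, 3 or 5 kb, for all placed genes and for 5 lists of gene families, with the number of placed genes under each name. Bars start at 0, and at 3 kb homeobox genes (45.8%) and other developmental factors (39.3%) stand above all placed genes (5.18%), with housekeeping genes at 0.952% and germline genes at 0%.

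Most valleys were nevertheless not at genes of these lists. A homeobox, other developmental factor or signal gene was placed in 84 valleys, another gene only in 444, and no gene in 269. The 84 had a median length of 4000 bp against 3600 and 3400 bp, and 32.1% of them reached 5 kb against 12.2% and 12.6%. Median levels were 1.38%, 1.46% and 1.53%, with quartiles of 1.21% and 1.57% in the 84 and of 1.20% and 1.79% in the 444, which overlap widely. Among the 50 longest valleys 13 held a gene of these lists, 25 another gene and 12 none. These 50 include only part of the 6 valleys tied at 6000 bp. In the 382 valleys with 1 gene a median of 1599 bp lay upstream of the start and 2096 bp downstream, with more of the valley downstream in 226 and upstream in 156.

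Valleys lay on every autosome, from 18 on chromosome 16 to 76 on chromosome 11. Per 1000 measured windows there were between 2.61 on chromosome 4 and 5.09 on chromosome 14. The median distance to the nearest valley was 656 kb, and 80 valleys lay within 20 kb of another, in 36 groups. Of these, 5 groups held 3 or more valleys. A group of 4 on chromosome 2 from 74492201 to 74540600 held Evx2, Hoxd11, Hoxd10 and Hoxd9, in this order, with 27.2 of its 48.4 kb inside valleys. A group of 4 on chromosome 6 from 52152601 to 52196800 held Hoxa5, Hoxa7, Hoxa10 and Hoxa11, and 1 of 4 on chromosome 11 from 96130601 to 96182200 held Hoxb4. The others were a group of 3 around Sox2 on chromosome 3 from 34537201 to 34564400, and a group of 3 around Cbx8, a Polycomb subunit gene, on chromosome 11 from 118895401 to 118920400. Of the 44 pairs of neighbours at most 20 kb apart, 14 had no measured window above 10% between them, 6 had 1 and 24 had 2 or more.

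The fractions were then compared, to see whether the small level left in valleys differed between swim-up sperm and HRCS. By the paper's DNA stain assay only a small part of swim-up sperm had not completed histone replacement. Most cells of both fractions were thus of the same kind, and the comparison is not one of sperm before and after replacement. All 4 libraries chose the valleys, so a region well methylated in HRCS could hardly be a member. Chosen from the swim-up libraries alone, at the same sites, the valleys numbered 805, and none had a mean above 10% in HRCS (highest 5.80%). Of their 12550 windows 100 (0.797%) exceeded 10% in HRCS, up to 19.9%. Chosen from the HRCS libraries alone they numbered 789, none above 10% in swim-up sperm, where 79 of their 12349 windows (0.640%) exceeded 10%, up to 19.9%. This choice by 1 fraction was added after seeing the data. For the 797, the mean level was 1.61% and 1.43% in the swim-up pair, and 1.63% and 1.61% in the HRCS libraries. HRCS replicate 2 thus lay just below swim-up replicate 1, and swim-up replicate 2 lay below the other 3. The means were 1.52% ± 0.126 and 1.62% ± 0.0154 (SD, n = 2 each), a difference of 0.0954 points (p = 0.667, exact permutation of the libraries, two-sided). With 2 libraries against 2 this test cannot go below 0.333. Without swim-up replicate 2 the difference was 0.00599 points, so its size rested on this library. In the shorter runs the mean levels were 2.36% ± 0.198 and 2.51% ± 0.0660, and both groups of runs were thus slightly lower in swim-up replicate 2.

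**Figure D5:**
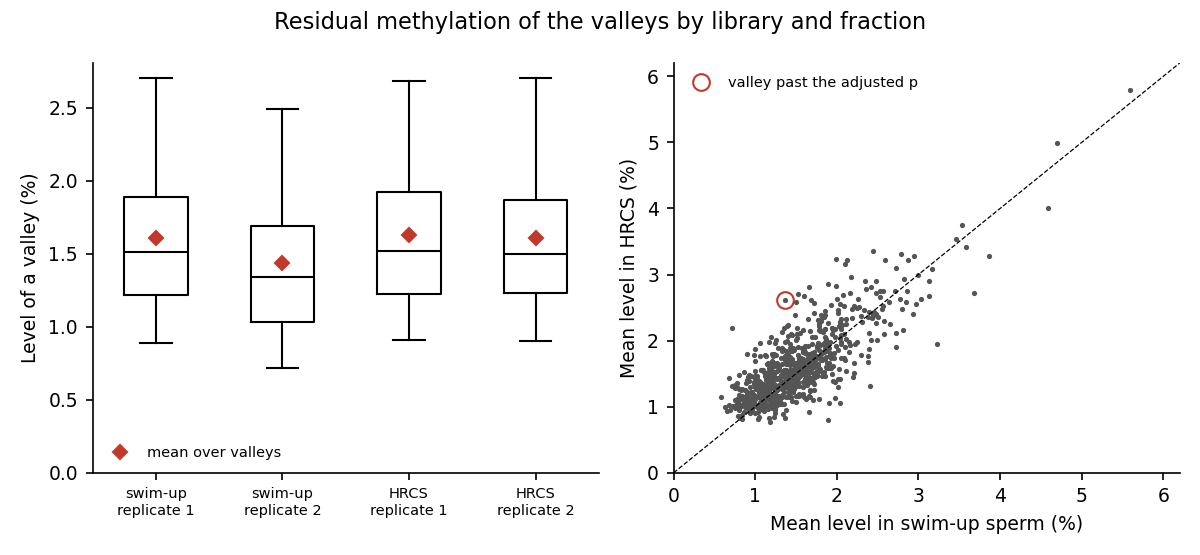
Left, level of the 797 valleys (%) in each library, with boxes from the lower to the upper quartile, a line at the median, whiskers from the 5th to the 95th percentile and a diamond at the mean. Right, mean level in HRCS against mean level in swim-up sperm (%) for each valley, with the line of equality dashed and the valley past the adjusted p circled; the library means are 1.61%, 1.43%, 1.63% and 1.61%.

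Valley by valley, the fractions differed by about as little as replicates did. The median size of the difference was 0.208 points between the fraction means, against 0.278 points between the swim-up libraries and 0.297 between the HRCS libraries. Single libraries of different fractions differed by a median of 0.269 to 0.324 points. HRCS was higher in 500 valleys and lower in 297, with a median difference of 0.0813 points, and 12 valleys differed by more than 1 point. In 191 valleys (24.0%) both HRCS libraries lay above both swim-up libraries, and in 68 (8.53%) both lay below. Over all 25261 runs of any length the shares were 20.7% and 12.1%, so more above than below was seen in low runs in general. Across valleys the levels of 2 libraries had a Pearson's r between 0.647 and 0.697, with 0.658 within swim-up sperm, 0.697 within HRCS and 0.647 to 0.694 between the fractions, over the 797 valleys of the same 4 libraries.

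The largest differences with fractions that did not overlap are given as values. In the sparsest valley, on chromosome 13 from 23522001 to 23527800, the levels were 0.545% and 0.882% in swim-up sperm, against 2.79% and 1.60% in HRCS, a difference of 1.48 points. The valley on chromosome 19 from 57432601 to 57436400 with the start of Fam160b1 had 2.37% and 1.62% against 3.38% and 3.08%, a difference of 1.24 points. In the opposite direction, the valley of Hhex, a homeobox gene of liver and blood development outside the list above, had 4.08% and 2.38% in swim-up sperm, against 1.81% and 2.10% in HRCS, a difference of -1.28 points (chromosome 19 from 37507401 to 37512200). A valley in the group around Sox2, on chromosome 3 from 34537201 to 34541800, had 1.92% and 1.87% against 1.04% and 0.553%, a difference of -1.10 points. That of 5031425E22Rik on chromosome 5 from 22938201 to 22941400 had a difference of -1.09 points. These 5 did not pass the test below.

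Each valley was tested with edgeR's quasi-likelihood test on its methylated and unmethylated calls, with Benjamini-Hochberg adjustment over all 25261 runs. Of the 797 valleys 1 passed an adjusted p of 0.05 and was higher in HRCS, and it was the single run of any length that passed (0.00396% of runs). It lay on chromosome 3 from 8664601 to 8668400, with no gene start placed. Its levels were 1.53% and 1.21% in the swim-up pair, and 2.30% and 2.93% in the HRCS libraries, on 3452 to 4566 calls. The means were 1.37% ± 0.225 and 2.62% ± 0.447 (SD, n = 2 each), a difference of 1.25 points and a change of 1.54 in log2 odds (adjusted p = 0.0272, edgeR). The valley no longer passed without HRCS replicate 2 (adjusted p = 1, edgeR), without swim-up replicate 2 (adjusted p = 0.198, edgeR), where another valley passed in its place, with a dispersion trend (adjusted p = 0.0626, edgeR) and with limma on logit levels (adjusted p = 0.957). Its own adjusted p was lowest without HRCS replicate 1 (2.11e-05, edgeR). With a library left out, 1 fraction has a single library, which is assumed to vary like the pair of the other fraction. The valley's change in log2 odds was 1.54 with the trend and 1.52 with limma, and 0.970 to 2.07 with a library left out. The limma fit took no account of the number of calls, so it judged valleys partly by the spread of runs with few calls. Its adjusted p thus says little about this valley.

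That valley's difference lay in 1 of its 12 windows. The window from 8666801 to 8667000, with 16 measured CG sites, held 10 methylated calls among 404 and 2 among 594 in swim-up sperm, whereas HRCS had 57 among 606 and 138 among 516. Over the other 11 windows the mean levels were 1.41% and 1.28% in swim-up sperm, against 1.80% and 1.31% in HRCS, a difference of 0.204 points, with 7 windows higher in HRCS and 3 lower. The differences of the other 11 windows, HRCS minus swim-up, ran from -1.91 to 1.85 points. In a test of all 229337 windows this was the only 1 of the 12456 valley windows past an adjusted p of 0.05 (adjusted p = 0.00149, edgeR), where 7 windows (0.00305%) passed in all. HRCS replicate 2 stood far above HRCS replicate 1 in this window, at 20.8% against 7.84%, and no valley window passed without it. This window's own adjusted p was also 0.629 without swim-up replicate 2 (edgeR), where 3 other valley windows passed, and 0.892 with limma.

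At an unadjusted p under 0.05, 572 valley windows (4.59%) passed, against 4.50% of all measured windows. Of these 342 (2.75%) were higher in HRCS and 230 (1.85%) lower, against 2.29% and 2.20% of all windows. Among whole runs, 50 of the 797 valleys (6.27%) passed at this level, against 4.63% of all runs, with 45 (5.65%) higher and 5 (0.627%) lower against 3.35% and 1.28%. The balance of whole valleys leaned towards higher in HRCS, like that of all runs, without swim-up replicate 1 and without either HRCS library. Without swim-up replicate 2 it was 24 higher (3.01%) and 20 lower (2.51%), against 2.47% and 2.49% of all runs, so the valleys' shares then lay near the background. With limma 5 valleys were higher and 1 lower at this level, against 765 and 490 of all 25261 runs. The shares of windows lay near their background with all 4 libraries.

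The share of each library's calls that fell in valleys was 6.50% and 6.64% in swim-up sperm, against 6.45% and 6.21% in HRCS. Both HRCS libraries lay below both swim-up libraries, by 0.240 points on average (6.57% ± 0.0991 against 6.33% ± 0.171, SD, n = 2 each, p = 0.333 by the same exact permutation, its smallest value). The size of the difference, HRCS minus swim-up, depended on the HRCS library: leaving out replicate 2 gave -0.119 points, and leaving out replicate 1 gave -0.361. Without the valley of deepest coverage the means were 5.17% and 4.95%, with the same p from the exact permutation test. Reads per CG site in valleys were 40.4, 37.5, 45.6 and 38.5 (swim-up replicates first), against 31.8, 28.3, 37.5 and 32.2 in the shorter runs. Without the valley of deepest coverage they were 31.9, 29.5, 35.5 and 30.4. Without it, valleys thus had slightly more reads per site than shorter runs in both swim-up libraries and fewer in both HRCS libraries. The median valley, however, had 30.2, 27.7, 33.9 and 29.1 reads per site, below the pooled value of the shorter runs in every library.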

How the data were processed

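The authors captured genomic DNA with probes (SureSelect Mouse Methyl-Seq), made libraries by post-bisulfite adapter tagging, sequenced single reads and mapped them to mm9 with Bmap (version not given in the sources used here). They deposited raw counts for each CG site and strand, with 1 column for methylated and 1 for total reads. These columns carry no names, so the smaller of the pair was read as the methylated count. Read this way, the mean level was 1.38% in windows of at least 20 CG sites and 61.2% in windows of 5 or fewer. The opposite reading would make CG-dense windows methylated and CG-poor ones not, the reverse of what is known of mammalian genomes. Removal of duplicate reads is not given in the sources used here, and copies of a read would be counted as separate reads.

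Both strands of a site were added, and the autosomal windows, runs and valleys were formed as the report describes, with pandas 2.3.3 and numpy 2.4.6 under Python 3.11.15. The members, gene lists and tests were chosen with earlier results of these data known. The reference used here was GRCm38, not mm9, so no coordinate was taken from it. The CG spacing of each RefSeq promoter (250 bases before to 50 after the start, 8 or more CG sites) was searched in the listed sites, and a single match on RefSeq's chromosome was kept. Of 12720 neighbouring placed promoters 12718 were in RefSeq's order.

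Differences were tested with edgeR 4.0.16 (quasi-likelihood, R 4.3.3) on methylated and unmethylated calls with a term per library, 1 dispersion and no trend, over all windows and over all runs, after a test on simulated data, and with limma 3.58.1 as an alternative. No source ties replicates to separate animals, so p-values measure the spread between these libraries, which may be technical. Named valleys were the 10 longest, the 3 most extreme each way in density and level, those nearest 3 kb, the 3 largest differences each way without overlap, and all past the adjusted p. The groups around gene clusters and the 8 methylated sites were described in addition, as were the 5 sequences.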

Additional observations from a re-analysis of the deposited data

How the results depend on the processing

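The number of valleys depends on the limits that define them. It was 797, with 3144000 bp in all. It was 356 with a minimum of 20 reads (1371200 bp), 1483 with windows of 500 bp (5682000 bp), 504 with a gap limit of 500 bp (1853600 bp), 3180 at 2 kb or more and 115 at 5 kb or more. Under the other 10 alternatives that kept all libraries it stayed between 565 and 1100, and without 1 library it was 826 to 836 (3255400 to 3297800 bp), since fewer libraries had to reach 10 reads. Valleys on X numbered 6. The 10 longest valleys gave 187 of 190 possible lengths under 19 alternatives. The Olig2 valley was lost with 20 reads, and those of Hoxd10 and Evx2 with a gap limit of 500 bp. Of the lengths, 132 were unchanged, but the alternatives of 2 kb, of 5 kb and of adding X and Y cannot change these lengths. The lengths ran from 3000 to 12600 bp, and 3000 bp is the rule's own limit. With a gap limit of 500 bp the Crnde valley was 6000 bp, shorter than the 8200 bp of the Crlf2 valley. The valleys of Tnrc18, Dlx2 and Hic1 were then 5200, 3600 and 3200 bp. The difference in mean level was 0.00599 to 0.185 points without 1 library, 0.0953 without the valley of highest coverage (added after seeing the data), 0.137 and 0.0570 in valleys chosen from swim-up sperm or HRCS alone (added likewise) and 0.116 from summed calls, always higher in HRCS. The share of calls was lower in HRCS under each alternative, by -0.119 to -0.361 points without 1 library.

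Valley windows past the adjusted p were 0 with limma and 0 to 3 without 1 library, and valleys past it were 0 with a dispersion trend, 0 with limma and 0 to 1 without 1 library. With limma 0 of all 229337 windows and 0 of all 25261 runs passed, and with the dispersion trend 0 of all 25261 runs passed. With the replicate block 1 valley window and 1 valley passed, where 8 of all 229337 windows and 4 of all 25261 runs passed. Without 1 library a fraction has a single library, so the counts without 1 library are given without a background. The libraries share only a number: differences between replicates 1 and 2 had a Pearson's r of 0.0452 between the fractions over valleys and 0.00137 over windows. At 10 reads 1 read moves a site by 10 points, so small differences at single sites were not detectable.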
